A study of Mus musculus with 6 samples.

Results

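Cytokine genes that lie outside the type 2 locus were examined in group 2 innate lymphoid cells (ILC2s) from mouse lung, cultured with melatonin or with its solvent. The set was listed by name, with no threshold on values but with earlier results of these data known: *Il10*, *Il24*, *Il22*, *Lif*, *Il6*, *Il9*, *Il2*, *Ifng*, *Tnf* and *Mif*. All 10 named genes were present among the 16381 genes of the deposited table, and all 10 passed the filter on low values. *Il4*, *Il5*, *Il13* and *Csf2*, the cytokine genes of the type 2 locus and its close neighbourhood, served only for comparison.

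RNA was measured by bulk sequencing in 6 libraries, 3 from melatonin-treated and 3 from vehicle-treated cells. Wild type BALB/c mice, stated to be females of 6 to 8 weeks, received 0.5 ug IL-33 in the nose each day for 3 days, so the cells of both groups had been activated in the animal. Live CD45+ lineage-negative ST2+ CD127+ cells were sorted from digested lung to a stated purity above 95%, and cultured for 24 h. The melatonin group received 250 uM melatonin and the vehicle group received DMSO. For its metabolic assays the study names IL-2 (10 ng/mL) and IL-7 in the medium. Whether the cultures for sequencing held them is not stated. Whether the libraries of a group came from separate mice or from a single pool is not stated. Sex-linked transcripts, given below, differed between melatonin replicate 1 and replicates 2 and 3, so these did not share a single pool. The p-values below measure the spread between these libraries, which may be technical among the vehicle libraries and between melatonin replicates 2 and 3.

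ILC2s are tissue lymphocytes without antigen receptors that answer epithelial alarm signals such as IL-33 by secreting cytokines. Besides the type 2 cytokines they can release IL-9, which acts back on ILC2s and on mast cells, and IL-10, which restrains inflammation, while IL-22 and interferon gamma are the classical products of ILC3s and of ILC1s or NK cells. Most of these cytokines signal through JAK kinases and STAT factors, whereas TNF acts through TNF receptors and MIF binds CD74.

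Libraries did not all match in ways that bear on the results. Estimated totals were 17056267 to 20511708 reads assigned to genes per library. Melatonin replicate 1 stood apart from replicates 2 and 3 on the second principal component (79.8 against −53.8 and −45.7). The Y-linked transcripts *Ddx3y*, *Eif2s3y*, *Kdm5d* and *Uty* were present in melatonin replicate 1 and in every vehicle library and were listed at 0 in melatonin replicates 2 and 3, where *Xist* reached 579 and 1091 normalized counts. The 4 libraries with Y-linked transcripts thus go against the stated sex of the mice, and since the other 2 are both melatonin libraries, sex in the source animals is partly confounded with treatment. The library names in the labels are numbered in one run for the melatonin group and in a separate run for the vehicle group, and the treatment cannot be told apart from a handling difference that follows this numbering. ILC2 markers were abundant in both groups, with *Gata3* between 17890 and 24590 normalized counts and *Il1rl1*, which encodes the IL-33 receptor ST2, between 7698 and 16790. Of the 10 ILC2 markers, however, 5 were lower with melatonin, namely *Thy1* (log2 fold change −2.88), *Klrg1* (−2.16), *Areg* (−1.69), *Il7r* (−1.06) and *Il2ra* (−0.77), 2 were higher and 3 were not called, and their sum went from 107600 to 113700 normalized counts in vehicle to 87250 to 90610 in melatonin. The T cell genes *Cd4*, *Cd8a* and *Cd5* were not listed, but all 6 listed T cell markers were lower with melatonin, with a summed level of 6049 to 6577 normalized counts in vehicle and 2127 to 3175 in melatonin. Most of the vehicle sum came from *Trbc2*, *Trbc1* and *Cd3g*, with vehicle means of 3558, 1449 and 1062. *Trac* and *Cd3d* had vehicle means of only 8.338 and 11.8. Antibodies to CD3e, CD4, CD5 and the T cell receptors were in the lineage cocktail that the sort excluded. Markers of further cell types moved as well. The counts of called markers, here and above, stand beside 24.7% lower and 24.5% higher over all genes tested. The 4 epithelial markers included *Scgb1a1* (−6.70), *Sftpc* (−5.07) and *Krt8* (−4.15), which were lower, and *Epcam* (0.72), which was higher. Vehicle replicate 3 stood apart in these, with *Scgb1a1* at 95.21, 21.55 and 1045 normalized counts in the vehicle libraries, *Krt8* at 4.667, 8.355 and 104.8 and *Sftpc* at 154.9, 121.8 and 389.3, so the sizes of these fold changes lean on that library. The eosinophil marker *Ccr3* (−4.46), the endothelial marker *Pecam1* (−1.55) and the B cell marker *Cd79b* (−1.06) were lower, as were 2 of 3 neutrophil markers, while *Epx*, *Prg2*, *Cdh5*, *Kdr*, *Ms4a1* and *Ly6g* were not listed. These markers differed between the same groups as the cytokines below, *Mif* included, and their part in the cytokine differences was not tested.

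With melatonin, 7 of the 10 cytokines were lower, 0 were higher and 3 were not called (limma with Benjamini-Hochberg adjustment over 14419 genes, threshold 0.05). Over all genes tested, the same rule called 24.7% lower and 24.5% higher. All 10 fitted log2 fold changes were below 0, so no p threshold could call one higher. With limma's voom 0 were higher and 6 lower, since *Tnf* lost its call. All 3 members of the IL-10 family were lower, by log2 fold changes of −4.90 to −6.80, and *Ifng* was listed at 0 in every melatonin library. *Lif* and *Mif* fell by smaller amounts, *Tnf* by the least, and *Il9*, *Il6* and *Il2* were not called. Values are normalized counts, that is, estimated reads per gene divided by a size factor of the library, and fold changes are differences of log2(normalized count + 1), melatonin minus vehicle. Because these are bulk libraries, fewer cells that make a cytokine and less of its RNA per cell cannot be told apart.

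**Figure D1:**
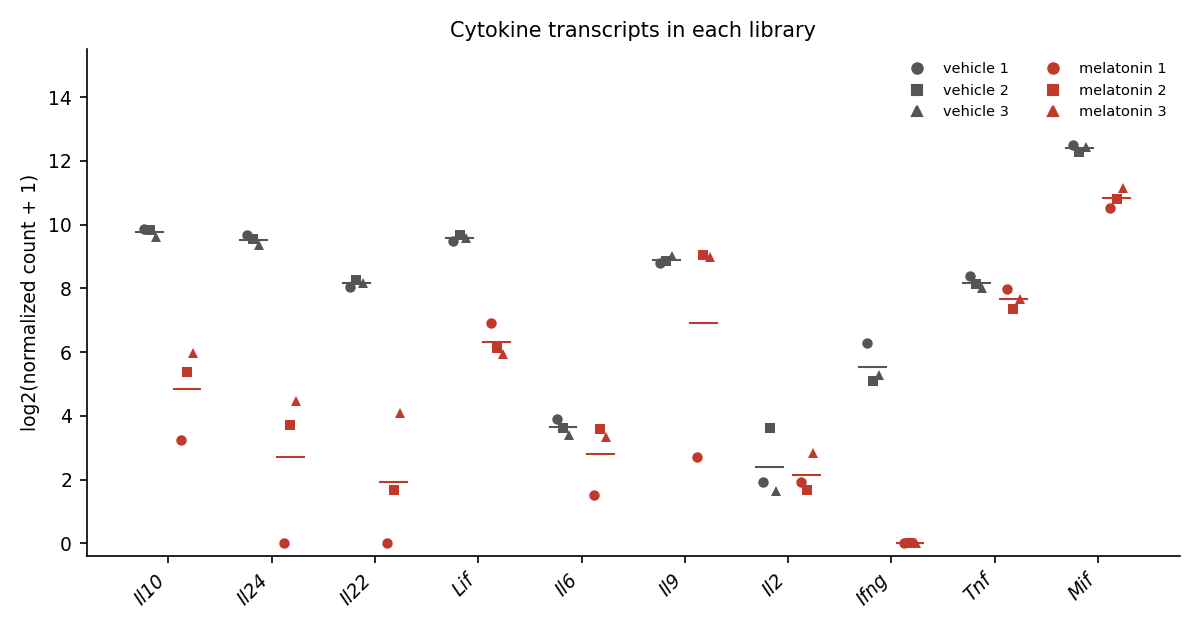
Level of each of the 10 cytokine transcripts in each of the 6 libraries, as log2(normalized count + 1). Grey points are vehicle and red points melatonin libraries, the point shape gives the replicate number, and bars mark the mean of the plotted values. *Ifng* lies at 0 in all 3 melatonin libraries, and *Il9* is low in melatonin replicate 1 only.

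**Figure D2:**
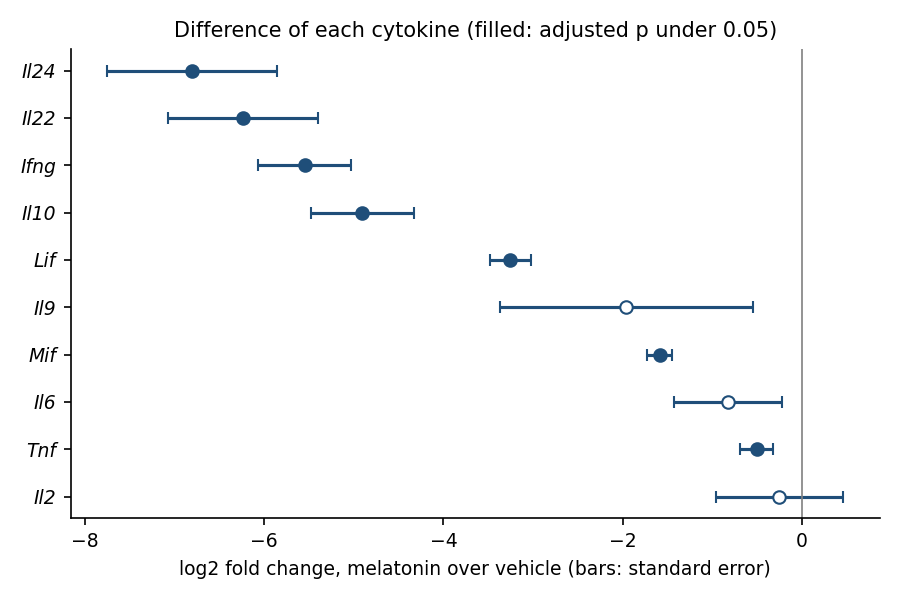
Log2 fold change of each cytokine, melatonin over vehicle, with its standard error from limma (n = 3 per group). Filled points passed the adjusted p threshold of 0.05. The estimates run from −6.80 for *Il24* to −0.25 for *Il2*.

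In 7 of the 10 genes every melatonin value lay below every vehicle value, and in none did every melatonin value lie above. Across all tested genes these arrangements held for 30.3% and 30% of genes. The median log2 fold change of the 10 genes was −2.61, against −0.0046 over all genes tested. For 5 of the 10, the call was lower with a log2 fold change beyond −2, which was so for 483 genes, or 3.35%, of all tested. These counts describe a list chosen with earlier results known. The exact two-sided permutation test of a single gene cannot go below 0.1 with 3 against 3, and it gave 0.1 for each of the 7 genes whose groups did not overlap.

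Promoter sequence is shown for 5 genes before their values, since *Il22* and *Ifng* share a stretch of chromosome 10 and were at or near 0 with melatonin, *Lif* and *Mif* were lower in all 3 melatonin libraries, and *Il9* followed a single library. The windows hold the 250 bases before the start of transcription given by RefSeq (table of build GRCm38.p6), written 5′ to 3′ on the strand of the gene, and their positions come from an exact match in GRCm39. The table held 8 of the 10 genes, and *Il10* and *Il24* had no entry. Capitals mark matches, on either strand, to the motifs of a TATA box, AP-1, STAT factors, the antioxidant response element, an E-box and NF-kB. Their letters are spelled out after the windows, except for the NF-kB consensus, which is given by name.
Il22, chr10:118040619-118040868, plus strand: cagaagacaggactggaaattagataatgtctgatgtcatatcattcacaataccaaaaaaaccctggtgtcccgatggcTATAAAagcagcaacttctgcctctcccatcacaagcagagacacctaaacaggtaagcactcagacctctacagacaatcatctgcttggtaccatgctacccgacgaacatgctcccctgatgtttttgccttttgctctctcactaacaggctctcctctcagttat
Ifng, chr10:118276701-118276950, plus strand: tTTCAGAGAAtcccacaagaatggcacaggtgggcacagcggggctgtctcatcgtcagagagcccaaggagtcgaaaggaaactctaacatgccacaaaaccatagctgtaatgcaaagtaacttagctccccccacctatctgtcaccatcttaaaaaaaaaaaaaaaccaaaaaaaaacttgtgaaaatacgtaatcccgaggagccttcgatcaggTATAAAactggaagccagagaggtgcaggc
Lif, chr11:4207318-4207567, plus strand: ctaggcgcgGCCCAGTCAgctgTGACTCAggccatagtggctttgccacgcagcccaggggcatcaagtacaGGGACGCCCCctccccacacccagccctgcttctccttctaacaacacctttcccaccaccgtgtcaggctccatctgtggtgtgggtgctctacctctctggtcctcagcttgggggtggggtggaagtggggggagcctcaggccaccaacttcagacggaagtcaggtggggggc
Mif, chr10:75696112-75696361, minus strand: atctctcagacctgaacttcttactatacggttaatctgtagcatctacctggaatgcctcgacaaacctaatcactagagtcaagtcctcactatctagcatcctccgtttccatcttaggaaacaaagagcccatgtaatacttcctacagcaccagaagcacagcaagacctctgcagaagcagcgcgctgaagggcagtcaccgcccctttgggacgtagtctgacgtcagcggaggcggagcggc
Il9, chr13:56630071-56630320, minus strand: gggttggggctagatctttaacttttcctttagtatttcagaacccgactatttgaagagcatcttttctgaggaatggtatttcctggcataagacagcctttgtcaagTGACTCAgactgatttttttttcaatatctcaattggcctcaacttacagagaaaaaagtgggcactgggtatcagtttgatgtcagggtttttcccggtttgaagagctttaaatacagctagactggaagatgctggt
The TATA box was searched as TATAAA. In these windows *Ifng* carried one from −30 to −25 relative to the start, the spacing usual for this element, while the one of *Il22* lay from −170 to −165 relative to the RefSeq start. *Tnf* and *Il2* also held a TATA box, making 4 of the 8 matched genes, against 13% of 27025 promoters of the same length. An AP-1 match, searched as TGANTCA, was present in *Lif*, *Il6* and *Il9*, 3 of 8, against 6.87% of promoters. *Lif* and *Il6* each held the NF-kB consensus (7.01% of promoters), and *Ifng* alone a STAT match, searched as TTCNNNGAA (7.18% of promoters). *Lif* alone held an antioxidant response element, searched as TGACNNNGC (10.1% of promoters), which did not overlap its AP-1 match. None of the 8 windows held the E-box CACGTG, which 6.05% of promoters carried. The NFAT core GGAAA, which is not capitalized, was found in all 8 and in 55.6% of promoters. The *Mif* window therefore held no capitalized match. A match is a description of letters and says nothing of binding, and a missing match says only that the letters are not in this window.

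The IL-10 family members *Il10*, *Il24* and *Il22* were each lower with melatonin. IL-10 limits the activity of myeloid and lymphoid cells, and IL-24 and IL-22 act mainly on epithelium. *Il10* (ENSMUSG00000016529, chr1:130947581-130952711, plus strand, GRCm39) held 927.8, 907.9 and 772.2 normalized counts in vehicle and 8.404, 40.42 and 61.32 in melatonin replicates 1, 2 and 3. The groups were far apart, and melatonin replicate 1 was the lowest library. The mean fell from 869.3 ± 84.7 to 36.7 ± 26.7 (SD, n = 3), 23.7-fold, and the fitted log2 difference was −4.90 (SE 0.57 and adjusted p = 0.000284 by limma).

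*Il24* (ENSMUSG00000026420, chr1:130809811-130815191, minus strand) starts 132.4 kb from *Il10* in the same cytokine cluster. Vehicle libraries held 808.3, 749.6 and 656.8 normalized counts, and melatonin libraries 0, 12.02 and 21.11. *Il24* was listed at 0 in melatonin replicate 1. Its log2 fold change of −6.80 (SE 0.94, adjusted p = 0.000601 by limma) was the lowest of the 10 genes, and the means differed 66.9-fold. The coefficient of variation was 95.9% among melatonin libraries and 10.3% among vehicle libraries.

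*Il22* (ENSMUSG00000074695, chr10:118040847-118045952, plus strand) was at 264.6, 304.8 and 283.6 normalized counts in vehicle and at 0, 2.185 and 16.08 in melatonin. No more than 16 estimated reads remained in any melatonin library. Its fold change was −6.23 on the log2 scale (SE 0.83, adjusted p = 0.000509 by limma) and the means differed 46.7-fold. The annotation holds a near-identical copy, *Il22b*, 90.1 kb away, and reads can be divided between the copies. *Il22b* held 14.51, 13.76 and 20.69 normalized counts in vehicle and 0 in every melatonin library, and with both copies summed the log2 fold change was −6.31. Markers of ILC3s, the cells best known for IL-22, were sparse: the 5 markers summed to 179.2 to 228.6 normalized counts in vehicle and 64.46 to 86.45 in melatonin. Of these, *Il17f* and *Il17a* were lower. Their part in the *Il22* difference was not tested.

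Without melatonin replicate 1 the 3 genes kept their calls, with log2 fold changes of −4.09 for *Il10*, −5.44 for *Il24* and −5.27 for *Il22*. Over all alternative settings run, the log2 fold change of *Il10* stayed between −6.53 and −4.09, that of *Il24* between −9.52 and −5.29, and that of *Il22* between −8.15 and −4.32. The size of the *Il22* difference leaned on melatonin replicate 3, without which its log2 fold change was −7.32. Markers of macrophages and monocytes, which can also make IL-10, summed to 1369 to 1578 normalized counts in vehicle and 364.2 to 847.5 in melatonin. Of the 7 tested markers 4 were lower, beside 24.7% of all genes tested, and *Marco* was not listed. The lineage cocktail of the sort held antibodies to CD11b, CD11c and Gr-1, which many macrophages and monocytes carry. Within the melatonin group *Itgam*, which encodes CD11b, was at 0, 5.463 and 24.13, lowest in replicate 1 as *Il10*, *Il24* and *Il22* were. Their part in the *Il10* and *Il24* differences was not tested.

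*Lif* and *Il6* signal through receptors that contain gp130, the product of *Il6st*, and mostly activate STAT3. *Lif* (ENSMUSG00000034394, chr11:4207557-4222514, plus strand), known for its part in stem cell maintenance and tissue repair, was at 721.5, 806.7 and 758.6 normalized counts in vehicle and at 118.6, 68.83 and 60.32 in melatonin. All melatonin values were far below the vehicle values, and here replicate 1 was the highest of the 3. On the log2 scale the change was −3.25 (SE 0.23, adjusted p = 3.17e-05 by limma), a 9.23-fold difference of means. Across the alternatives it stayed between −3.54 and −2.67. The epithelial markers, from cells that can also make LIF, summed to 877.4 to 2173 normalized counts in vehicle and 1022 to 1236 in melatonin. Nearly all of the melatonin sum was *Epcam* (1230, 1016 and 1046), which was higher, while *Scgb1a1*, *Sftpc* and *Krt8* were lower. The endothelial marker was at 1001 to 1066 in vehicle and 310.0 to 416.3 in melatonin. Their part in the *Lif* difference was not tested.

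*Il6* (ENSMUSG00000025746, chr5:30218112-30224979, plus strand), a cytokine of acute inflammation, was close to the detection limit. Its values were 14.0, 11.24 and 9.443 normalized counts in vehicle and 1.868, 10.93 and 9.047 in melatonin. The groups overlapped, and melatonin replicate 1 was the low library. The log2 fold change of −0.83 (SE 0.60, adjusted p = 0.278 by limma) was not called, and the exact permutation p was 0.2. Without melatonin replicate 1 it was −0.18. Replicate 1 alone against the vehicle libraries gave −2.12 (limma adjusted p = 0.0272), in a comparison added after the data were seen, where the melatonin side is 1 library of 2 estimated reads and the p rests on the spread of the vehicle libraries alone. *Il6* held 2 to 15 estimated reads per library, and what size of difference could be detected at this depth was not tested.

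*Il9* and *Il2* bind receptors that share the common gamma chain. *Il9* (ENSMUSG00000021538, chr13:56627090-56630059, minus strand) was at 440.6, 461.9 and 511.0 normalized counts in vehicle and at 5.603, 525.5 and 509.7 in melatonin. Melatonin replicates 2 and 3 lay near or above the top of the vehicle range, whereas replicate 1 held 6 estimated reads against 481 and 507. The log2 fold change of −1.96 had a standard error of 1.41 and was not called (limma adjusted p = 0.274, exact permutation p = 0.9). Without melatonin replicate 1 its sign turned, to 0.14 (adjusted p = 0.29). Against the vehicle libraries, replicate 1 alone gave −6.16 (limma adjusted p = 1.27e-05), a comparison added after the data were seen, in which the lone library is again assumed to vary like the vehicle group.

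The gap of *Il9* between melatonin replicate 1 and the mean of replicates 2 and 3 was −6.30 on the log2 scale. Among the 9990 genes whose mean reached 100 normalized counts, only *Xist* had a lower value, and the median size of this gap was 0.19. *Il24* was the fifth lowest at −4.08, after *Ifitm1* and *Chil3*, and *Il22* stood at −2.88 and *Il10* at −2.43. By contrast *Lif* (0.87) and *Tnf* (0.47) were higher in replicate 1. In all, 6 of the 10 cytokines had their lowest melatonin value in replicate 1 and 2 had their highest there, against 37.8% and 37.2% of all genes tested. Mast cell and basophil markers, from cells that also make or answer IL-9, summed to 2.811 to 16.8 normalized counts in vehicle and 1.868 to 36.19 in melatonin, with *Fcer1a* and *Ms4a2* not listed. An antibody to FceRIa, the product of *Fcer1a*, was in the lineage cocktail that the sort excluded. Since replicate 1 also differed from replicates 2 and 3 in its Y-linked transcripts and *Xist*, the source of the *Il9* gap cannot be told apart from those library differences.

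*Il2* (ENSMUSG00000027720, chr3:37174672-37180108, minus strand), the T cell growth factor, held 2.807, 11.27 and 2.105 normalized counts in vehicle and 2.812, 2.187 and 6.062 in melatonin. The libraries of both groups overlapped fully and none held more than 12 estimated reads. The log2 fold change was −0.25 (SE 0.71, adjusted p = 0.787 by limma, exact permutation p = 0.9) and was not called. What size of difference in *Il2* could be detected at this depth was not tested. The sign of *Il2* turned under quantile normalization (0.49).

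*Ifng* (ENSMUSG00000055170, chr10:118276951-118281797, plus strand) encodes interferon gamma, the main type 1 cytokine of NK cells and ILC1s. It was at 76.54, 32.79 and 37.77 normalized counts in vehicle and at 0 in all 3 melatonin libraries. Taking 3 counts per library as the limit that a count of 0 allows, *Ifng* was at least 16.2-fold lower with melatonin. The limma adjusted p was 0.000107, and the call remained in each of 17 alternatives. The fitted log2 fold change of −5.54 depends on the pseudocount and ranged from −8.84 to −2.49 for that reason.

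Markers of NK cells and ILC1s moved in the same direction as *Ifng*. All 5 tested of the 7 listed markers were lower with melatonin, beside 24.7% of all genes tested. The sum of the listed markers went from 8217 to 10310 normalized counts in vehicle to 250.3 to 352.8 in melatonin. Nearly all of this sum came from the granzyme genes *Gzma*, at 6499 ± 720.1 in vehicle and 135.2 ± 70.22 in melatonin (SD, n = 3), and *Gzmb*, at 2738 ± 525.5 and 143.9 ± 19.26. *Ncr1*, whose product CD335 the sort excluded, was at 103.6, 101.2 and 114.4 in vehicle and at 0, 0 and 1.005 in melatonin. *Tbx21*, which encodes T-bet, the factor that drives *Ifng*, was at 60.67, 53.41 and 76.59 against 9.338, 5.463 and 4.021. *Klrb1c* and *Eomes* were below 10 in every library. Their part in the *Ifng* difference was not tested.

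*Tnf* and *Mif* are broad proinflammatory mediators, the first acting through TNFR1 and TNFR2 and the second a stored protein found in most cells. *Tnf* (ENSMUSG00000024401, chr17:35418357-35420983, minus strand) was at 332.3, 277.3 and 256.0 normalized counts in vehicle and at 250.3, 161.7 and 202.1 in melatonin. The groups just failed to overlap, with melatonin replicate 1 close to vehicle replicate 3. The log2 fold change was −0.51 (SE 0.18, adjusted p = 0.0449 by limma). This call held in 9 of 18 alternatives, and of the fits that left out 1 library it held only without melatonin replicate 1 (adjusted p = 0.01). The adjusted p was 0.154 without vehicle replicate 1, 0.0961 without vehicle replicate 2, 0.0587 without vehicle replicate 3, 0.138 without melatonin replicate 2 and 0.0811 without melatonin replicate 3.

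*Mif* (ENSMUSG00000033307, chr10:75695187-75696122, minus strand) was the most abundant of the 10 transcripts. Vehicle libraries held 5744, 5001 and 5588 normalized counts and melatonin libraries 1469, 1784 and 2253. Every melatonin library was below the 3 vehicle libraries by more than the spread of either group. The log2 fold change was −1.59 (SE 0.14, adjusted p = 9.01e-05 by limma), a 2.97-fold difference of means, and it kept between −1.89 and −1.44 in all alternatives run. Processed copies of *Mif* can share its reads: *Mif-ps4*, at 844.3 ± 88.1 against 329.2 ± 66.0 (SD, n = 3), was the highest of 5 such copies listed, and with the copies summed the log2 fold change was −1.56. *Ddt*, which encodes the MIF homologue D-dopachrome tautomerase and starts 86.9 kb away, went the other way, from 587.1, 589.3 and 614.8 to 1003, 810.7 and 987.2 (log2 fold change 0.64, limma adjusted p = 0.00144).

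**Figure D3:**
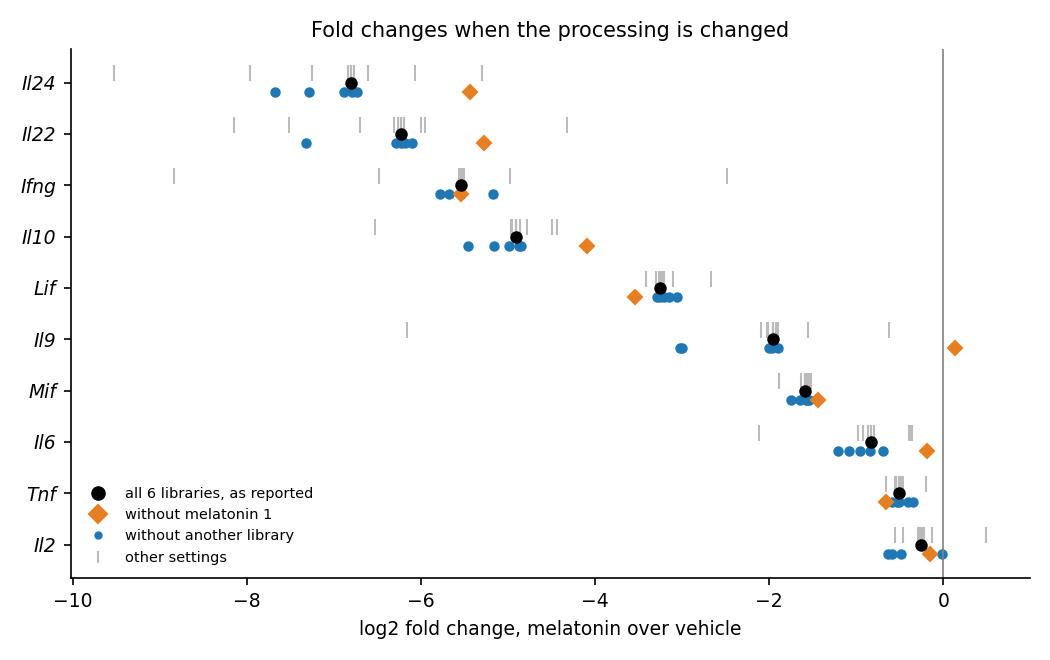
Log2 fold change of each cytokine as reported (black), without melatonin replicate 1 (orange), without each other library in turn (blue) and under the other settings (grey ticks). *Il9* crosses 0 without melatonin replicate 1 and *Il2* under quantile normalization, and the estimates of the other 8 genes are below 0 throughout.

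To order the transcripts by level, normalized counts were divided by the length of all annotated exons in kilobases. In vehicle cells *Mif* led at 6551 per kilobase, followed by *Il9* (879.0), *Il10* (663.1), *Il24* (533.0), *Il22* (256.1), *Tnf* (176.0), *Lif* (165.5), *Ifng* (37.9), *Il6* (4.76) and *Il2* (4.72). *Tnf* and *Lif* overlapped between libraries, as did *Il6* and *Il2*, and the other neighbours in this order did not. In melatonin-treated cells *Mif* was still first at 2209 per kilobase, and *Tnf*, at 124.9, stood above *Il10* (28.0), *Lif* (17.9), *Il24* (7.97) and *Il22* (5.49). The libraries of *Il10*, *Lif*, *Il24* and *Il22* overlapped one another in every pair across the group. Within each of the 3 melatonin libraries, however, *Il10* stood above *Il24* and *Il22*, while *Lif* was above *Il10* in replicate 1 and below it in replicates 2 and 3. *Il9* spanned 10.45 to 980.4 between libraries, *Ifng* was at 0, and *Il2* (3.22) and *Il6* (3.00) overlapped again.

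Genes with the profile most like each cytokine were sought among transcripts whose mean reached 100, by the Euclidean distance of the centred log2 values over the 6 libraries. For *Il10* these were *Mmp8* (distance 0.77) and *Il1r2* (0.93). For *Il24* they were *Ifitm1* (0.70) and *Angptl2* (1.28), and for *Il22* *Angptl2* (1.60) and *Il24* itself (1.71). *Podnl1* (0.47) and *Axl* (0.62) were nearest to *Lif*. *Il9* had no close match, and its nearest genes were *Chil3* (1.83), at 54.16, 1640 and 957.0 normalized counts in the melatonin libraries, and *Tnfrsf8* (2.82). *Csnk1g1* (0.12) and *H2-T23* (0.13) were nearest to *Tnf*, and *Gm57504* (0.14) and *Gm14328* (0.16) to *Mif*. These distances describe 6 libraries that all genes share.

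Several of these genes sit in clusters, and their neighbours did not all move with them. The neighbour counts stand beside 24.7% lower and 24.5% higher over all genes tested. Of 7 tested genes with a start within 250 kb of *Il10*, 3 were lower and 0 higher. Besides *Il24* the lower ones were *Dyrk3* (log2 fold change −0.71), 119.5 kb away, and the sparse *Gm37084* (−2.50), 72.3 kb away. *Mapkapk2*, whose start is 78.0 kb from that of *Il10*, was at 2025, 4540 and 6231 normalized counts in vehicle and 5858, 6081 and 4935 in melatonin and was not called. *Fcmr*, whose start is 21.8 kb from that of *Il24*, was at 128.8, 115.2 and 106.0 against 3.735, 59.0 and 57.3, again lowest in melatonin replicate 1, and was not called (log2 fold change −2.20, limma adjusted p = 0.0553). Near *Il24*, 2 of 7 were lower and 1 higher. Of 3 tested near *Il22*, *Il22b* and *Ifng* were lower while *Mdm1*, 63.2 kb to the other side, was higher (0.34, limma adjusted p = 0.0214). Both genes tested near *Ifng* were lower, and these were its cytokine neighbours *Il22* and *Il22b*. As near-identical copies *Il22* and *Il22b* can share reads, so they are not independent neighbours. *Osm*, which encodes oncostatin M, another gp130 cytokine, starts 21.1 kb from *Lif* and was not called, at 2329, 2359 and 2306 in vehicle and 2001, 2963 and 3073 in melatonin. *Lta* and *Ltb*, the lymphotoxin genes beside *Tnf*, were not called either, with log2 fold changes of −0.10 and −0.89. Near *Lif*, 4 of 10 tested genes were lower and 0 higher, among them *Castor1* (−1.05), 39.5 kb away, and *Mtfp1* (−3.06), 160.9 kb away. Near *Mif*, 3 of 11 were lower and 3 higher, near the shares over all genes tested, so these counts are no result about that region.

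**Figure D4:**
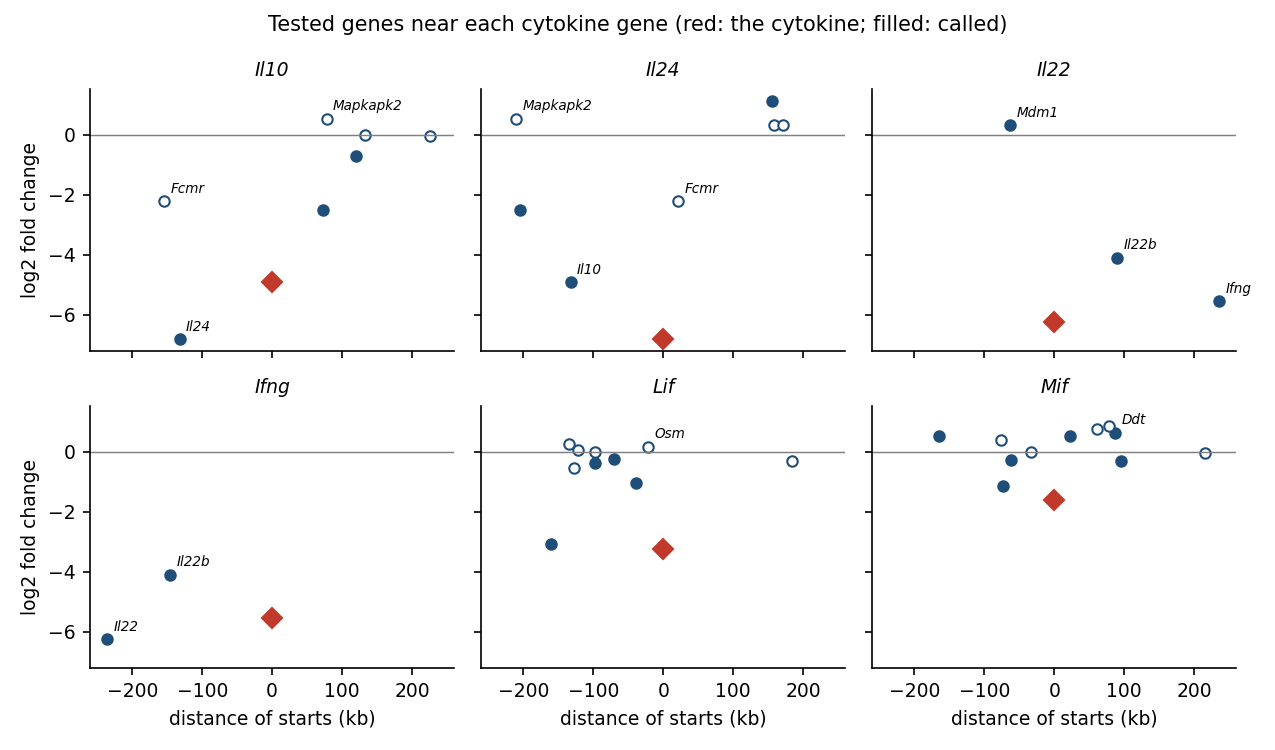
Log2 fold change of tested genes by the distance of their start from that of each cytokine gene, in kb, positive in the direction of transcription. The red diamond is the cytokine, filled circles passed the adjusted p threshold of 0.05 and open circles did not. *Mapkapk2*, *Osm* and *Mdm1* lie near or above 0 beside cytokine genes with values from −3.25 to −6.23.

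Other cytokine genes outside the type 2 locus gave a mixed picture. Of 44 on a list, 24 were in the table and 21 were tested. Beside 24.7% lower and 24.5% higher over all genes tested, 8 of the 21 were lower, 1 (*Ddt*) was higher and 12 were not called. Their median log2 fold change was −0.89. The count of higher genes was 2 without melatonin replicate 1, 3 without melatonin replicate 3 and 4 with only the libraries that hold Y-linked transcripts, where melatonin is replicate 1 alone. *Il1rn*, which encodes the IL-1 receptor antagonist, fell most, from 285.6, 159.3 and 228.7 normalized counts to 0, 6.555 and 6.032 (log2 fold change −5.87, limma adjusted p = 0.000323). *Il17f* (−3.06), *Il1a* (−3.03) and *Tgfb3* (−2.50) followed. The sizes leaned on melatonin replicate 1. Without it the values were −4.91 for *Il1rn*, −2.49 for *Il17f*, −2.24 for *Il1a* and −2.28 for *Tgfb3*, and each kept its call. *Osm* and *Il16*, the most abundant of those not called, were at 0.17 and 0.18. Calls as higher appeared for *Osm* without melatonin replicate 1 (0.37, limma adjusted p = 0.00164) and with sample weights, and for *Il16* without melatonin replicate 3 (0.24, limma adjusted p = 0.0443), with equal library totals and with voom. Replicate 1 alone against vehicle gave the opposite sign for *Osm* (−0.22), in a comparison with 1 melatonin library whose spread comes from the vehicle libraries only. The type 2 cytokines *Il13*, *Csf2*, *Il4* and *Il5* were lower by log2 fold changes of −2.22, −0.87, −0.84 and −0.75, and *Il4* lost its call without vehicle replicate 1 (adjusted p = 0.0566) or vehicle replicate 2 (0.0641). Side by side, *Il10*, *Il24*, *Il22*, *Lif* and *Ifng* had lower fold changes than any of these 4, as a description of the fitted values.

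**Figure D5:**
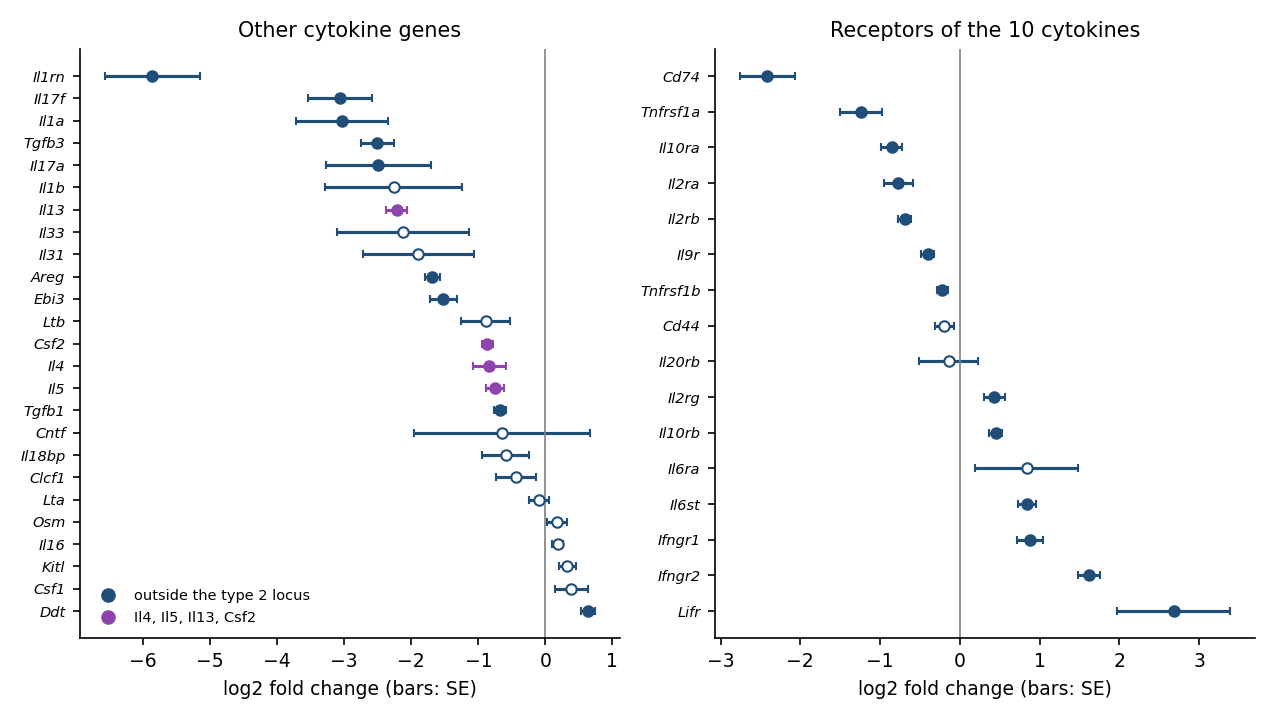
Log2 fold change with its standard error from limma for the tested cytokine genes on the comparison lists (left) and for the tested receptor genes of the 10 cytokines (right). Filled points passed the adjusted p threshold of 0.05. On the left, *Il1rn* lies lowest at −5.87 and *Ddt* alone is a called rise, and on the right 7 genes are called lower and 6 higher.

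Of 16 tested receptor genes of the 10 cytokines, 7 were lower, 6 were higher and 3 were not called (median log2 fold change −0.17). The shares over all genes tested were 24.7% lower and 24.5% higher. *Cd74*, the MIF receptor and MHC class II chaperone, fell from 1871, 1404 and 1339 normalized counts to 149.4, 334.3 and 461.4 (log2 fold change −2.41, limma adjusted p = 0.000732). *Tnfrsf1a*, encoding TNFR1, was lower (−1.24) and *Ifngr2*, a chain of the interferon gamma receptor, was higher (1.62). *Lifr* was barely present, at 0.9334, 1.874 and 0 against 4.669, 17.48 and 13.07, and its call as higher was lost without melatonin replicate 2 (adjusted p = 0.0644). *Cd44* (−0.19) and *Il20rb* (−0.14) were not called, but *Cd44* was called lower without melatonin replicate 1 (−0.31, limma adjusted p = 0.0181). The receptor genes *Il22ra1* and *Il22ra2*, the subunit and the decoy that bind IL-22, were not listed.

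Among 12 genes that these receptors induce through STAT factors and NF-kB, 3 were lower, 5 were higher and 4 were not called. Beside 24.7% lower and 24.5% higher over all genes tested, the count of lower genes is no result about this list. The 5 higher became 3 without melatonin replicate 1 or vehicle replicate 3 and 1 without vehicle replicate 2, and the 3 lower became 1 without vehicle replicate 3. *Socs3*, a feedback inhibitor induced by STAT3, fell from 4150, 4389 and 4262 normalized counts to 985.1, 1916 and 1852 (log2 fold change −1.49, limma adjusted p = 0.000813). *Socs2*, induced by STAT5, was higher (0.86). *Stat3* (0.31) was called higher, and lost its call without vehicle replicate 1 (adjusted p = 0.0548) or vehicle replicate 2 (0.0514). *Pim1* (0.04) and *Irf1* (−0.19) were not called, though *Irf1* was called lower without melatonin replicate 1 (−0.39, limma adjusted p = 0.0114).

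Transcription factors with a textbook role at these cytokine genes also moved both ways: of 28 tested, 8 were lower, 8 higher and 12 not called (median −0.12), shares near the 24.7% lower and 24.5% higher of all genes tested. Besides *Tbx21* (−3.20, limma adjusted p = 0.000267), *Irf4*, which promotes *Il9* and *Il10*, was lower, from 3026, 2728 and 2992 normalized counts to 467.8, 1249 and 1328 (−1.66, adjusted p = 0.00374). *Ahr*, the aryl hydrocarbon receptor that promotes *Il22*, was higher, from 299.6, 416.0 and 462.7 to 1358, 1400 and 1139 (1.74, adjusted p = 0.000107). *Cebpb* was called higher (2.86) with vehicle values spread from 12.13 to 188.9, and its log2 fold change went from 1.85 without vehicle replicate 1 to 3.78 without vehicle replicate 3. *Cebpb* lost its call without melatonin replicate 2 (adjusted p = 0.0641) and without the variance trend (0.0641). *Gata3* (0.07) and *Junb* (−0.22) were not called, though *Junb* was called lower without melatonin replicate 1 (−0.26, limma adjusted p = 0.0232). With melatonin replicate 1 alone against vehicle the log2 fold change of *Gata3* was 0.34, where the spread comes from the vehicle libraries only. Of 9 regulators of cytokine mRNA decay, *Zfp36l1* was higher (0.55) and *Rc3h2* lower (−0.41), the latter losing its call without vehicle replicate 1 (adjusted p = 0.0525) or vehicle replicate 3 (0.0592), and 7 were not called, among them *Elavl1* (−0.05) and *Hnrnpd* (0.36). Without melatonin replicate 1 these counts were 2 higher and 2 lower.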

How the data were processed

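RNA of 6 libraries was sequenced on an Illumina NextSeq after cDNA synthesis with a SMARTer low-input kit. The input per library is given as 10 ng in the labels and as 10 pg in the study's methods, and which is right is not known. After quality trimming, the authors mapped reads to mm39 by STAR, obtained estimated counts of GENCODE genes from Partek's E/M algorithm, dropped genes under 10 counts throughout and scaled by DESeq2 median-ratio size factors. The deposited values are therefore a signal, normalized estimated counts, and not raw counts. The stated removal of genes under 10 counts is not seen in them. Of the 16381 genes listed, 14419 reached 10 normalized counts in some library. *Il18*, for one, was at most 3.278 and *Mif-ps8* at most 5.246. How the authors' filter was applied is not known. Columns of the authors' own comparison were not used. The smallest step between low values gave the worth of 1 read in each library. Of the values, 63.4% to 66.0% were whole multiples of it within a tolerance of 0.01, so no count model was the main test. The voom alternative was fitted to counts estimated from this worth, which are not all whole numbers. The total reads estimated from the worth of 1 read were 17056267 to 20511708. Limits for a value of 0 (3 counts per library) cover counting error only.

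Tested were the 14419 genes that reached 10 in some library, with limma 3.58.1 (R 4.3.3, eBayes with trend) on log2(value + 1), two-sided, with Benjamini-Hochberg adjustment over all of them and a threshold of 0.05, after the fit had been tested on simulated data. A pseudocount of 1 understates the change of low genes. The genes and lists were chosen with earlier results of these data known. By the rule for naming, every cytokine of the set is named, up to 4 called genes with the largest fold change and up to 2 most abundant genes not called are named from each list, and the 2 genes nearest in profile to each cytokine. Some items are not reported here. Neighbours, markers and the genes lowest in melatonin replicate 1 were named after their values were seen. Positions come from GENCODE M39 on GRCm39, the build of the files. For 5 of the 10 cytokines the annotation has an overlapping gene, and 0 of these are in the table. Exon lengths cover all annotated transcripts. Promoters come from RefSeq (GRCm38.p6). Alternatives changed the pseudocount, the filter, the scaling, the variance model and the libraries included.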

Additional observations from a re-analysis of the deposited data

How the results depend on the processing

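The 10 cytokines were recomputed in 178 combinations of gene and alternative, of which 165 kept their direction and their side of the threshold. *Il10*, *Il24*, *Il22*, *Lif*, *Ifng* and *Mif* kept their calls in every alternative in which they could be tested, and 9 lost calls were all those of *Tnf*. The number of cytokines called lower ranged from 6 to 7 in the fits without 1 library and was 8 with only the libraries that hold Y-linked transcripts, an alternative added after the data were seen that sets melatonin replicate 1 alone against vehicle, so that the spread comes from the vehicle libraries only and the count is no check of stability. The calls over all genes ranged from 2747 to 3454 higher and from 2708 to 3619 lower without 1 library. At an adjusted p of 0.01 they were 2188 higher and 2267 lower, by construction of the stricter threshold.

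The sign turned for *Il9* without melatonin replicate 1 (−3.02 to 0.14 over the fits without 1 library) and for *Il2* under quantile normalization (0.49). Among comparison genes that were not called, the sign turned for *Elavl1* (0.063 under quantile normalization, 0.022 without vehicle replicate 3, 0.0024 without melatonin replicate 1, and −0.18 to 0.022 without 1 library), *Gata3* (−0.035 with sample weights, and −0.074 to 0.16 without 1 library, the lowest without melatonin replicate 1), *Hnrnpd* (−0.097 without vehicle replicate 1, up to 0.75 without vehicle replicate 3), *Il20rb* (0.20 under quantile normalization, and −0.31 to 0.022 without 1 library, the highest without vehicle replicate 1) and *Pim1* (−0.0083 with upper-quartile scaling, −0.015 without vehicle replicate 1, −0.0040 without melatonin replicate 2, and up to 0.090 without melatonin replicate 1). With only the libraries that hold Y-linked transcripts, where melatonin is replicate 1 alone, it turned for *Cd44* (0.041), *Irf1* (0.20), *Osm* (−0.22) and *Pim1* (−0.057). The cause was not tested.

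The correlations of same-numbered deviations were −0.11, 0.14 and −0.19, and those of differently numbered libraries ran from −0.19 to 0.31. With only 3 libraries per group, these values cannot decide whether replicate numbers pair the libraries. Vehicle replicates 2 and 3 held Y-linked transcripts while melatonin replicates 2 and 3 did not. Those same-numbered libraries therefore did not share their source animals. With a replicate block limma called 3160 genes higher and 3278 lower, and 7 of the 10 cytokines lower. *Il6* and *Il2* held at most 15 and 12 estimated reads per library, and whether depth limited their calls was not tested.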

Other observations

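Around *Tnf*, in the major histocompatibility region, 33 genes with a start within 250 kb were tested, and 9 were lower and 11 higher with melatonin, beside 24.7% lower and 24.5% higher over all genes tested, so the counts are no result about the region. The classical class I gene *H2-D1*, which presents peptides to T cells, was at 106600, 107400 and 103500 normalized counts in vehicle and at 199500, 184400 and 176200 in melatonin (log2 fold change 0.82, limma adjusted p = 0.000308). *Hspa1a* and *Hspa1b*, which encode inducible heat shock proteins, were higher by 3.13 and 2.15. Class I genes are similar in sequence and can share reads, so their single values are uncertain. *Fbxl21*, which starts 40.2 kb from *Il9* and encodes a ubiquitin ligase subunit linked to the circadian clock, was at 5.6, 9.37 and 3.148 in vehicle and at 141.9, 50.26 and 43.23 in melatonin (log2 fold change 3.39, limma adjusted p = 0.00103), with its highest value in the library in which *Il9* was lowest. *Fgf2*, which encodes a fibroblast growth factor and starts 222.4 kb from *Il2*, the farthest of 4 genes tested around it, fell from 72.51, 58.33 and 58.28 to 9.959, 12.97 and 12.17 (log2 fold change −2.33, limma adjusted p = 0.000293), while *Il2* was not called. These neighbours were chosen after their values were seen.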
